A study of Homo sapiens with 8 samples.

Results

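The 46 genes described here encode human nuclear receptors, and each was found by its symbol among the 31412 named gene rows of a bead array study of breast cancer cells. The cells were of the line MDA-MB-231, a common model of triple-negative breast cancer, and carry a doxycycline-inducible oestrogen receptor beta, the protein of ESR2. The labels do not say whether the engineered line is 1 clone. Cells near confluence in charcoal-stripped serum received 100 ng/ml doxycycline in every dish and then either 1 nM estradiol (3 cultures) or ethanol vehicle (3 cultures) for 5 days. For 1 culture of each treatment a second RNA sample was hybridised too, so that there were 8 arrays, 4 per treatment. Both groups were therefore induced to express the introduced receptor, a culture without doxycycline is not analysed here, and an effect of estradiol that needs oestrogen receptor beta cannot be told apart from one that does not. The question that the design poses for these genes is which receptors the cells hold beside the introduced one, and which receptor transcripts differ after the ligand.

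Nuclear receptors are transcription factors with a DNA-binding domain of zinc fingers and a domain that, in many members, binds a small fat-soluble ligand. Steroid receptors, which include the oestrogen, progesterone, glucocorticoid and mineralocorticoid receptors, mostly bind DNA as homodimers. The retinoic acid, thyroid hormone, vitamin D, liver X and peroxisome proliferator-activated receptors pair with a retinoid X receptor. Other members, such as the COUP-TF, NR4A and REV-ERB proteins, were named orphans because they were found before any ligand. In breast epithelium the oestrogen receptor alpha (ESR1) and its target, the progesterone receptor (PGR), define luminal tumours, and triple-negative lines such as MDA-MB-231 are classed by their absence.

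Between 10172 and 11123 gene rows were detected per array (detection p under 0.01), and median raw signals lay between 66.3 and 75.4. Arrays of different treatments correlated at r = 0.960 to 0.973 across rows, below the 0.990 to 0.997 between estradiol cultures and the 0.985 to 0.992 between vehicle cultures. The repeat array of vehicle culture 3 correlated with the first array of that culture at 0.980, and values without it are given for the 6 called genes whose call is lost without it (NR4A2, IDH3A, ACAA2, DBP, CRY1 and NPAS2). All 7 markers of MDA-MB-231 cells passed the detection filter, 1 of 7 luminal and HER2 markers did (KRT19), and 9 of 9 markers of leukocytes, endothelium and fibroblasts were detected on no array. ERBB2, a combined row, was set aside although its signal was at the level of detected rows. KRT19 rose by 1.81 on the log2 scale with estradiol (limma adjusted p = 2.56e-06), and of the MDA-MB-231 markers 4 rose and 1 fell; the part of these markers in the results below was not tested. By the array names in the labels there were 2 chips, chip A with 1 estradiol and 2 vehicle arrays and chip B with 3 estradiol and 2 vehicle arrays. Precision is limited by this number of arrays. The labels give cultures a number and nothing on separate passages or days, so p-values measure the spread between these samples, which may be technical. In bulk RNA, fewer cells holding a transcript and less of it per cell cannot be told apart.

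Of the 46 receptor genes, 12 were detected on all 8 arrays. They were ESR2, ESRRA, RXRA, RXRB, NR1H2, NR1H3, NR1D2, NR2C1, NR2C2, NR2F2, NR2F6 and NR4A2. PPARD was detected on 3 of 4 estradiol and 4 of 4 vehicle arrays, NR3C2 on 3 and 1, and NR2F1 on 3 and 0. THRA was detected on 2 estradiol arrays alone, both of culture 1, and HNF4A on 1 vehicle array alone. The other 29 were detected on no array, or 19 when a detection p under 0.05 was enough. A detection p is the share of negative control beads at least as bright, but for 25 of the 46 genes the row combines several probes and its detection p does not follow its signal. For 4 genes without a detection call (RARA, PPARG, NR3C1 and VDR), all combined rows, the signal reached the level of detected single-probe rows on 4 to 8 arrays. The other 25 undetected genes never did, and their raw signals of 45.5 to 83.8 lay around the background means of 59.2 to 65.5. Such a signal is not well above background, which is a bound on the transcript and does not show that it was absent.

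**Figure D1:**
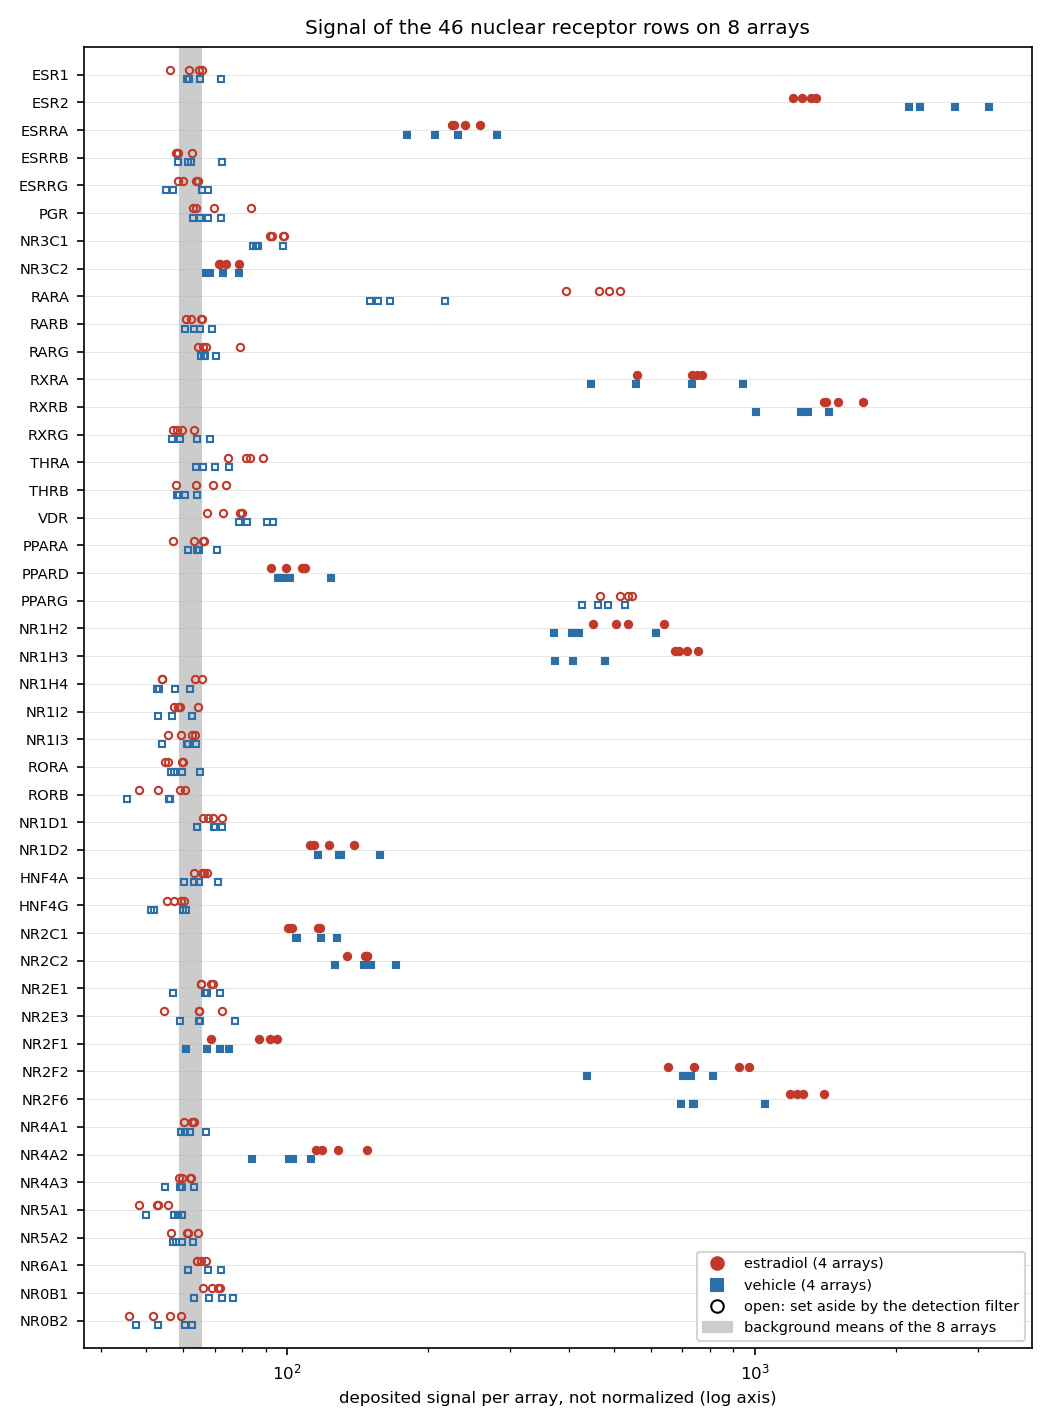
Deposited signal of the 46 nuclear receptor rows on a log axis, with 1 point per array, estradiol arrays (circles) above vehicle arrays (squares). Open symbols mark rows set aside by the detection filter, and the grey band spans the background means of 59.2 to 65.5. The symbols of RARA and PPARG are open although their signals lie far above the band.

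With estradiol, 4 of the 15 tested receptor genes rose and 1 fell at an adjusted p under 0.05 (limma, adjusted over all 11191 rows tested). NR1H3, NR2F6, NR2F1 and NR4A2 rose and ESR2 fell. That is 33.3% of the tested members, against 27.7% of all tested rows. For rises the shares were 26.7% against 13.6%, and for falls 6.67% against 14.2%. The median log2 change was 0.02 over the tested receptor genes, against -0.02 over all tested rows. Cultures of the treatments did not overlap in 6 of the 15 (40%), against 42.8% of all tested rows. The filter admits a row detected in 1 treatment alone, as it did NR2F1, and the counts do not cover the 31 genes set aside. Tested without the filter, where 9.8% of all rows passed (4.98% higher and 4.82% lower), 1 of these 31 passed: RARA.

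**Figure D2:**
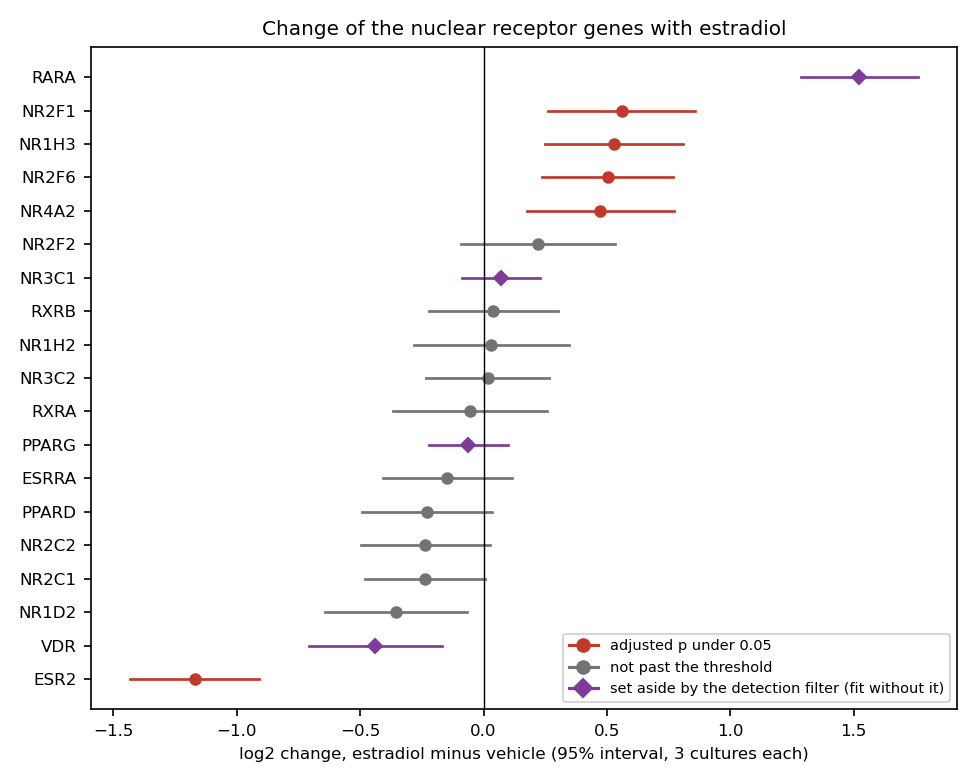
Log2 change with estradiol minus vehicle and its 95% interval (3 cultures each) for the 15 tested receptor genes and 4 set-aside genes with signal. ESR2 lies at -1.17, RARA at 1.52, and the 4 genes that rose between 0.47 and 0.56.

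ESR2 fell with estradiol. Its raw signals were 1349, 1209, 1262 and 1320 on the estradiol arrays (culture 1, its repeat, cultures 2 and 3), against 3163, 2130, 2256 and 2674 on the vehicle arrays (cultures 1, 2 and 3 and the repeat of 3). Every vehicle array was brighter than every estradiol array. Normalized log2 signals averaged 10.17 ± 0.059 in estradiol cultures and 11.34 ± 0.172 in vehicle cultures (SD, n = 3 each), a change of -1.17 (SE 0.118, 95% interval -1.43 to -0.91, limma adjusted p = 4.95e-05), so that vehicle was 2.25-fold higher. The change was -1.34 within chip A, -0.99 within chip B and -1.11 with chip as a block, past the threshold each time. All 24 alternative settings kept the call. The row counts transcripts of the introduced gene and of the cells' own ESR2 together as far as its name tells, and probe sequences are not used here.

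The other oestrogen receptor gene, ESR1, was detected on no array (detection p 0.175 to 0.668). Its raw signals were 64.8, 56.2, 65.9 and 61.7 with estradiol and 72.1, 65.1, 61.6 and 61.1 with vehicle, which lie within the background and overlap. Of the oestrogen-related receptors, orphans that bind a related DNA element, ESRRA was detected on every array, and its change of -0.15 did not pass (95% interval -0.41 to 0.12, limma adjusted p = 0.39). ESRRB and ESRRG were not detected. Among 9 coactivators and targets of these receptors, which act in mitochondrial energy metabolism, 7 were tested, 0 rose and 2 fell at the limma threshold. Over all tested rows 13.6% rose and 14.2% fell. These shares belong beside the counts of this list and of each list below, all with few tested genes. PPRC1, a coactivator related to PGC-1, changed by -0.52, and IDH3A, a subunit of the mitochondrial isocitrate dehydrogenase, by -0.50 (adjusted p = 0.00458 and 0.0165, limma). IDH3A passed with 4 of the 6 single cultures left out, and it did not pass without the vehicle 3 repeat (-0.34, limma adjusted p = 0.103) or with chip as a block (-0.52, adjusted p = 0.0585). The median change of the 7 was -0.02.

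Of the 3-ketosteroid receptors, NR3C2, the mineralocorticoid receptor, was the only one tested and changed by 0.02 (interval -0.23 to 0.27, limma adjusted p = 0.931). Its call rests on the detection p alone, since its signal reached the level of detected single-probe rows on 0 arrays. PGR was detected on no array. Raw PGR signals were 63.1, 63.9, 69.8 and 83.8 with estradiol, against 67.6, 63.0, 65.1 and 72.1 with vehicle, and the groups overlap. On the log2 scale PGR stood at 4.87 ± 0.284 in estradiol cultures and 4.68 ± 0.089 in vehicle cultures, and its lowest detection p was 0.0117. NR3C1, the glucocorticoid receptor, a combined row without a detection call, had 91.9, 93.1, 98.7 and 97.9 with estradiol and 98.2, 86.9, 86.0 and 84.4 with vehicle. Its change was 0.07 (95% interval -0.09 to 0.23, adjusted p = 0.695 in the limma fit without the filter).

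Of 12 glucocorticoid receptor targets, 7 were tested, 0 rose and 2 fell, where 13.6% of all tested rows rose and 14.2% fell. The median change of the 7 was -0.24. MT2A, a metallothionein, changed by -0.88 and FKBP5, a co-chaperone that lowers hormone binding of steroid receptors, by -0.56 (limma adjusted p = 1.26e-04 and 0.00246). Of 12 chaperones and co-chaperones of steroid receptors, 10 were tested, and BAG1 (0.62) and FKBP4 (0.58) rose while FKBP5 and STIP1 (-0.39) fell. BAG1 binds HSP70 and FKBP4 is the co-chaperone that aids steroid receptor activation. STIP1, which joins HSP70 to HSP90, passed with 3 of the 6 single cultures left out.

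RARA, the retinoic acid receptor alpha, had the largest change among the 19 receptor genes plotted with intervals. Raw signals were 514, 394, 465 and 488 on the estradiol arrays, against 218, 151, 166 and 157 on the vehicle arrays, and every estradiol array was brighter than every vehicle array. Normalized log2 signals averaged 8.59 ± 0.054 in estradiol cultures and 7.07 ± 0.188 in vehicle cultures (SD, n = 3 each). RARA is a combined row with detection p-values of 0.0179 to 0.296, so the detection filter set it aside. Tested without that filter it changed by 1.52 (SE 0.101, 95% interval 1.29 to 1.76, limma adjusted p = 9.9e-05), a 2.87-fold higher level. With rows admitted by level as well, a filter chosen after the data were seen under which 27.8% of 12383 rows passed, the adjusted p was 7.63e-06 (limma). The change was 1.63 within chip A (adjusted p = 0.171), 1.57 within chip B (adjusted p = 2.15e-04) and 1.59 with chip as a block, and 20 of 21 alternatives passed (limma). With the background inferred from all rows, it was 0.40 (adjusted p = 0.0015, limma).

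All 3 windows around the transcription starts of RARA are shown because this gene had the largest rise. The first 2 of the 4 windows of NR1H3, 1 of the other genes that rose, are shown with them. Each window spans 250 bases before to 50 after a RefSeq start (GRCh38.p14, plus strand for both genes), and capitals mark matches on either strand to the nuclear receptor half-site AGGTCA and the GC box GGGCGG. Coordinates are chr17:40308930-40309229 for RARA window 1, chr17:40317995-40318294 for window 2 and chr17:40341916-40342215 for window 3. They are chr11:47248050-47248349 for NR1H3 window 1 and chr11:47248645-47248944 for window 2.
RARA window 1: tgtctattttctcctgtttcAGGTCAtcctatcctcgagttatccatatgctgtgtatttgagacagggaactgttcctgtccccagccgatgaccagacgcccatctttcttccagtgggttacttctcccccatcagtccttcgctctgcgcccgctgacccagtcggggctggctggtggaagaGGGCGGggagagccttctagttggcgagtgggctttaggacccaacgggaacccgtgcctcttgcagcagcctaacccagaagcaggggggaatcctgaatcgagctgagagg
RARA window 2: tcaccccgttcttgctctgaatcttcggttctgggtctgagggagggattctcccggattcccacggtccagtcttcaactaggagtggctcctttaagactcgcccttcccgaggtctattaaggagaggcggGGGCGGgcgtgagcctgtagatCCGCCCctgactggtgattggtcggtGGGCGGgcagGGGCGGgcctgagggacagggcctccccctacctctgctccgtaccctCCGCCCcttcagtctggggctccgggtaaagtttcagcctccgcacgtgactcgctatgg
RARA window 3: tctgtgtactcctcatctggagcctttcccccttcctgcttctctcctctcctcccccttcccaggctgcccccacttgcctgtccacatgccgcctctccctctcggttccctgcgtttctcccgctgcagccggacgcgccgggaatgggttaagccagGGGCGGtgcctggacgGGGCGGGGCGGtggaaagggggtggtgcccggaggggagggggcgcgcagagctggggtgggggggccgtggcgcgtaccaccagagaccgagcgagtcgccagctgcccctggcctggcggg
NR1H3 window 1: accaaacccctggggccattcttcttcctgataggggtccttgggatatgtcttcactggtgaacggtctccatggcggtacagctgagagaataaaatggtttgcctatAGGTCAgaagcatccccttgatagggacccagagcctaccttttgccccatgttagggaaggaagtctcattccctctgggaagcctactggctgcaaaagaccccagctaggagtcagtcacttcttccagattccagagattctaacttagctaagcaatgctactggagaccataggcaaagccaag
NR1H3 window 2: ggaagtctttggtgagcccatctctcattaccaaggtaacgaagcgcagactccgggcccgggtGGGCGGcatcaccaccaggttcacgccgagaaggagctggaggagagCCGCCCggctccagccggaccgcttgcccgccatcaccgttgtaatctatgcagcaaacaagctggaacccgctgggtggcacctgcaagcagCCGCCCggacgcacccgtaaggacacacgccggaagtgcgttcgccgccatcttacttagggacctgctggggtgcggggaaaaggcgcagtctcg

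RARA window 1 holds 1 half-site, 230 bases before the start, and 1 GC box. Windows 2 and 3 of RARA hold 5 and 3 GC boxes and no half-site. NR1H3 window 1 holds 1 half-site, 140 bases before the start, and window 2 holds 3 GC boxes. Of the NR1H3 windows not shown, window 3 holds neither motif and window 4 holds 2 GC boxes. The windows of NR2F1, which also rose, hold neither motif. For NR2F6 and NR4A2, which rose too, no window was matched. Some windows of the cells' own ESR2 gene hold 1 half-site each, and others hold 8 or 7 GC boxes and no half-site. The promoter of the introduced ESR2 is not among the windows, and the ESR2 row that fell counts both genes as far as its name tells. The half-site was found in 16 of the 96 windows of the 41 receptor genes matched to a window by symbol (16.7%), against 13.8% of all 35116 windows. The GC box was found in 49 of the 96 (51.0%), against 45.0%. The palindromic oestrogen response element (GGTCA, 3 bases of any kind, TGACC) was in 0 of the 96 windows, against 0.057% of all windows, and the direct repeats of AGGTCA spaced by 1, 4 or 5 bases were also in 0. A match describes letters in a window, and no match says only that these letters are not in it.

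RARB was not detected, and RARG was not either, with raw signals of 79.2, 66.2, 67.0 and 64.5 on estradiol arrays and 66.5, 66.7, 70.5 and 65.5 on vehicle arrays. Among the retinoid X receptors, the shared partners, RXRA changed by -0.05 (95% interval -0.37 to 0.26, limma adjusted p = 0.81) and RXRB by 0.04 (-0.22 to 0.30, adjusted p = 0.837). RXRA had 736, 559, 751 and 772 with estradiol and 943, 557, 734 and 447 with vehicle, where vehicle culture 1 was highest and the vehicle 3 repeat lowest. RXRG was not detected. A change of RARA minus that of RXRA was 1.58 with no overlap of the cultures, and its two-sided exact permutation test gave p = 0.1, the smallest that 3 cultures against 3 allow.

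Genes that act on retinoids or respond to them moved in both directions. Of 18 such genes, 7 were tested, 3 rose and 3 fell at the limma threshold, with a median change of 0.11. CYP26B1, an enzyme that degrades retinoic acid, rose by 1.63 on the log2 scale (adjusted p = 2.34e-06). DHRS3, which reduces retinaldehyde, and CRABP2, which carries retinoic acid to the nucleus, fell by 0.80 and 0.67 (adjusted p = 2.77e-04 and 0.00161). RARRES3 and TGM2 rose by 0.64 and 0.58, and ALDH1A3, which makes retinoic acid, fell by 0.60. CYP26B1 passed under each of 24 alternatives.

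THRA, the thyroid hormone receptor alpha, had raw signals of 88.7, 83.5, 74.9 and 81.8 with estradiol and 75.3, 70.2, 63.8 and 66.0 with vehicle. The ranges overlap at 1 estradiol and 1 vehicle array, and its change of 0.36 did not pass in the fit without the filter (limma adjusted p = 0.0987). It passed there with chip as a block, where repeat arrays were not averaged with their culture (0.45, limma adjusted p = 0.0326). THRB was not detected. Of 9 thyroid hormone genes, 4 were tested and 1 rose, BCL3, at a change of 0.90 (limma adjusted p = 2.09e-04). BCL3 encodes an IκB-family coregulator.

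VDR, the vitamin D receptor, had 72.9, 79.3, 80.2 and 67.3 with estradiol and 93.4, 82.2, 90.5 and 78.8 with vehicle, so that only the vehicle 3 repeat reached into the estradiol range. On the log2 scale it stood at 4.95 ± 0.233 in estradiol cultures and 5.38 ± 0.032 in vehicle cultures, a change of -0.44. This missed the threshold without the filter (95% interval -0.71 to -0.17, limma adjusted p = 0.0555) and passed it with rows admitted by level (adjusted p = 0.0282). It also passed with chip as a block, where repeat arrays were not averaged with their culture (limma adjusted p = 0.0437). Of 9 genes of vitamin D metabolism or listed as targets of the receptor, 4 were tested, 2 rose and 0 fell. The other 5 (CYP24A1, CAMP, TRPV5, TRPV6 and SPP1) were detected on no array. CYP27B1, the hydroxylase that makes active vitamin D, was detected on 4 estradiol and 0 vehicle arrays and was at least 2.80-fold higher with estradiol (limma adjusted p = 9.4e-07, measured log2 means 6.79 and 4.76). THBD, thrombomodulin, rose by 1.27 on the log2 scale (adjusted p = 6.01e-05, limma). Both kept their calls within chip A, within chip B and without each culture in turn.

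NR1H3, the liver X receptor alpha, rose with estradiol. Raw signals were 716, 755, 674 and 688 on estradiol arrays, against 477, 478, 374 and 408 on vehicle arrays, and the groups do not overlap. Log2 signals averaged 9.24 ± 0.141 in estradiol cultures and 8.71 ± 0.168 in vehicle cultures, a change of 0.53 (SE 0.126, 95% interval 0.25 to 0.81, limma adjusted p = 0.0106) or 1.44-fold. Within chip A it was 0.59 (adjusted p = 0.347), within chip B 0.58 (adjusted p = 0.0362) and with chip as a block 0.59 (adjusted p = 0.00727). Without vehicle culture 3 the change was 0.48 and missed the threshold (adjusted p = 0.0532, limma).

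NR1H2, the liver X receptor beta, changed by 0.03 (95% interval -0.28 to 0.35, limma adjusted p = 0.89). The change of NR1H3 minus that of NR1H2 was 0.50, and the cultures overlapped (two-sided exact permutation p = 0.2). Of 10 liver X receptor targets, which act in cholesterol export and lipid synthesis, 6 were tested, 1 rose and 0 fell, with a median change of 0.27. The one that rose was ABCA1, the cholesterol exporter, by 0.63 (SE 0.134, limma adjusted p = 0.00551). NR1H4, NR1I2 and NR1I3, the bile acid and xenobiotic receptors, were not detected on any array.

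PPARG, the receptor that drives fat cell differentiation, is a combined row with raw signals of 514, 466, 536 and 547 with estradiol and 527, 484, 426 and 461 with vehicle. The ranges overlap, and its change was -0.06 (95% interval -0.22 to 0.10, limma adjusted p = 0.745 without the filter). PPARD changed by -0.23 (interval -0.49 to 0.04, limma adjusted p = 0.182), and PPARA was not detected. Of 13 targets of these receptors 6 were tested, 1 rose and 1 fell at the limma threshold. PLIN2, which coats lipid droplets, fell by 1.18 (adjusted p = 2.27e-05) and passed in all 24 alternatives. ACAA2, a mitochondrial thiolase, rose by 0.31 (adjusted p = 0.0422, limma), a call that was lost when any of the 6 cultures was left out. It was also lost without the vehicle 3 repeat (0.30, adjusted p = 0.0741) and with a replicate block (adjusted p = 0.0548, limma).

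All 3 COUP-TF genes passed the detection filter. These proteins bind direct repeats and often act as repressors. NR2F6 rose: raw signals were 1408, 1190, 1266 and 1229 with estradiol, against 1053, 696, 740 and 736 with vehicle, and no vehicle array reached an estradiol array. Its log2 signals averaged 10.14 ± 0.092 in estradiol cultures and 9.64 ± 0.166 in vehicle cultures, a change of 0.50 (SE 0.120, 95% interval 0.24 to 0.77, limma adjusted p = 0.0106) or 1.42-fold. It was 0.53 within chip A (adjusted p = 0.407), 0.62 within chip B (adjusted p = 0.00675) and 0.59 with chip as a block, and it passed without each culture in turn.

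NR2F1 had raw signals of 87.1, 68.9, 95.1 and 91.9 with estradiol and 75.0, 67.3, 60.8 and 72.0 with vehicle. The estradiol 1 repeat lay within the vehicle range, while culture means did not overlap. Log2 signals averaged 5.33 ± 0.250 in estradiol cultures and 4.77 ± 0.051 in vehicle cultures. As it was detected on 0 of 4 vehicle arrays, its fold is given as a bound, at least 1.02-fold higher with estradiol (limma adjusted p = 0.0109). The measured change of 0.56 was 0.47 within chip A (adjusted p = 0.485), 0.56 within chip B (adjusted p = 0.0786) and 0.53 with chip as a block (adjusted p = 0.0284). Without estradiol culture 2 it was 0.46 and missed the threshold (adjusted p = 0.0531, limma). With the background inferred from all rows it was 0.02 and missed it too (adjusted p = 0.166, limma).

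NR2F2 had 742, 653, 970 and 926 with estradiol and 700, 729, 815 and 438 with vehicle. The lowest was the vehicle 3 repeat. Its change of 0.22 did not pass (95% interval -0.09 to 0.53, limma adjusted p = 0.276) and was 0.08 without that array. The change of NR2F1 minus that of NR2F2 was 0.34 (exact permutation p = 0.1), and that of NR2F6 minus NR2F2 was 0.28 (exact permutation p = 0.4). With the differences for ESR2 minus ESRRA (-1.02, exact permutation p = 0.1) these make 5 pairs, picked after their values were seen, and the smallest p after Benjamini-Hochberg adjustment was 0.167.

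**Figure D3:**
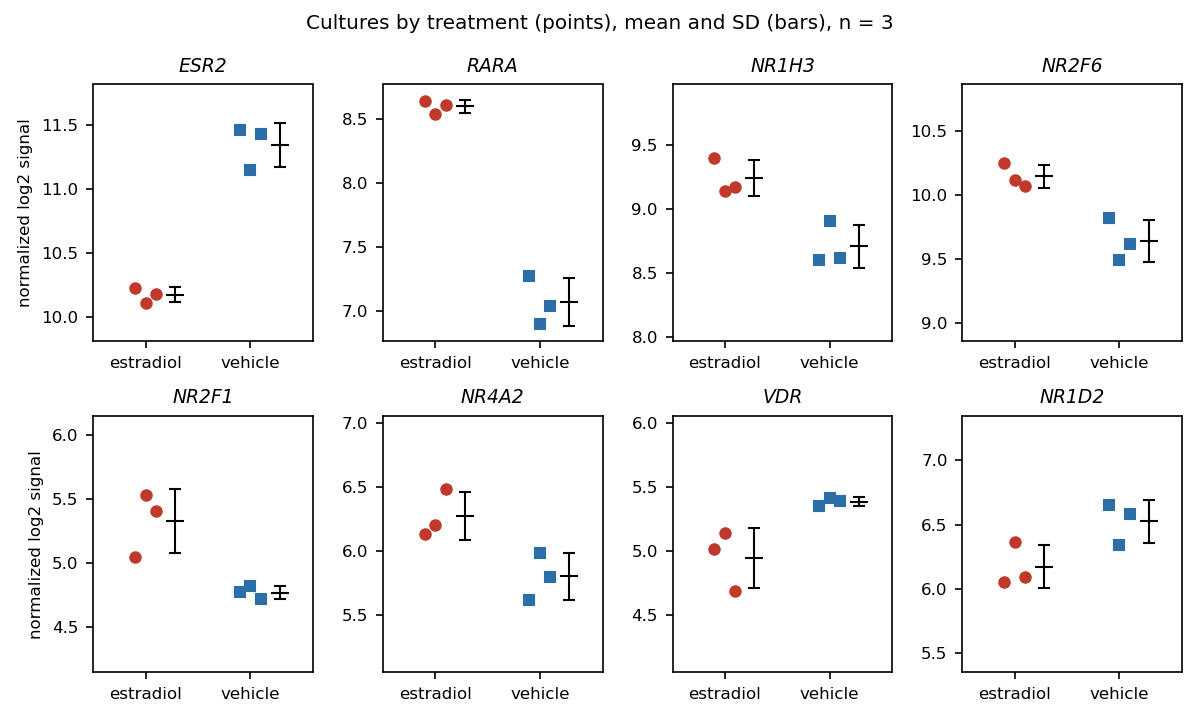
Normalized log2 signal of each culture, estradiol left of vehicle, with the mean and SD (n = 3), for 8 receptor genes. Each panel has its own offset and a span of at least 2 log2 units, so that slopes but not levels can be compared between panels. In NR1D2 the treatments overlap, and in the other 7 they do not.

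NR4A2, an immediate-early orphan receptor, had raw signals of 119, 115, 128 and 148 with estradiol, against 103, 101, 112 and 84.3 with vehicle. The groups do not overlap, and the vehicle 3 repeat was the lowest. Log2 signals averaged 6.28 ± 0.186 in estradiol cultures and 5.80 ± 0.180 in vehicle cultures, a change of 0.47 (SE 0.135, 95% interval 0.17 to 0.77, limma adjusted p = 0.0246) or 1.39-fold. The call was lost in 12 of 24 alternatives: without the vehicle 3 repeat the change was 0.34 (adjusted p = 0.144), within chip A 0.56 (adjusted p = 0.384), within chip B 0.21 (adjusted p = 0.348) and with chip as a block 0.34 (adjusted p = 0.0705). It passed with 2 of the 6 single cultures left out. NR4A1 and NR4A3 were not detected. Of 10 other immediate-early genes 5 were tested and 1 rose, JUNB, a subunit of the AP-1 factor, by 0.73 (limma adjusted p = 0.00157).

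**Figure D4:**
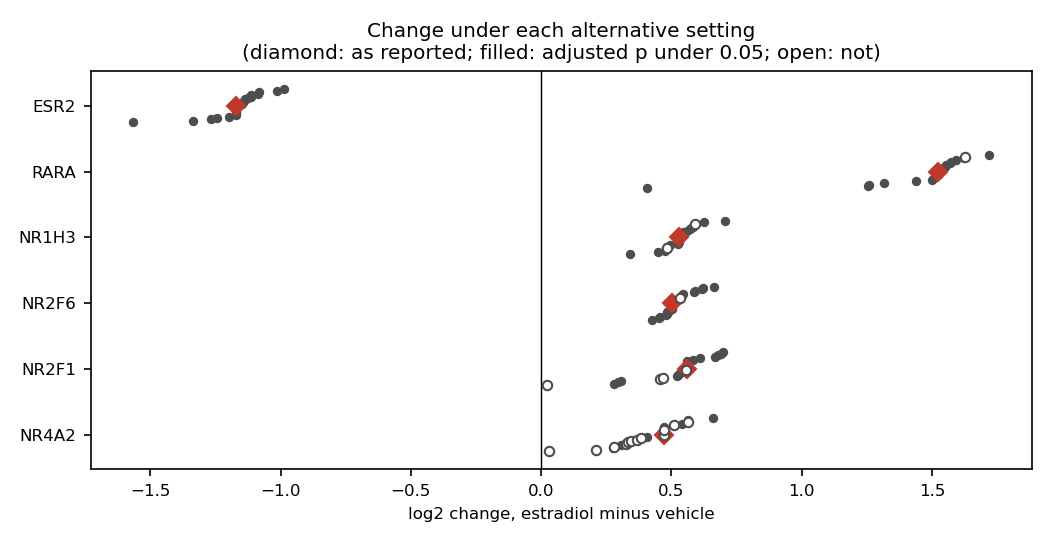
Log2 change of 6 receptor genes as reported (diamonds) and under each alternative setting (circles, filled where the adjusted p was under 0.05). No circle lies on the other side of 0 from its diamond. ESR2 has no open circle, and NR4A2 has 12.

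Among the clock receptors, NR1D2, a REV-ERB repressor of the circadian clock, had raw signals of 112, 114, 139 and 123 with estradiol and 158, 116, 130 and 129 with vehicle. Its change of -0.35 did not pass (95% interval -0.64 to -0.07, limma adjusted p = 0.0656). It passed with chip as a block, where repeat arrays were not averaged with their culture (-0.40, limma adjusted p = 0.0370). NR1D1, RORA and RORB were not detected. Of 14 clock genes, 13 had a row and 9 were tested, of which 3 rose and 2 fell. TEF and DBP are transcription factors of the clock output, and CRY2 is one of its repressors. TEF rose by 0.83 and CRY2 by 0.52 (limma adjusted p = 0.00122 and 0.0118). DBP was detected on 3 estradiol and 0 vehicle arrays and passed (adjusted p = 0.0273), but its bound gave no fold above 1. CRY1, the related repressor, and NPAS2, a partner of BMAL1, changed by -0.45 and -0.43. DBP passed with 2, CRY1 with 1 and NPAS2 with 1 of the 6 single cultures left out. Without the vehicle 3 repeat none of these 3 passed: DBP changed by 0.32, CRY1 by -0.42 and NPAS2 by -0.43 (limma adjusted p = 0.117, 0.0673 and 0.0511).

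NR2C1 and NR2C2, the testicular orphan receptors, were detected on every array and changed by -0.24 each (95% intervals -0.48 to 0.01 and -0.50 to 0.03, limma adjusted p = 0.137 and 0.166). NR2C1 is the tested gene without a call whose cultures did not overlap. HNF4A, a liver and gut receptor, had raw signals of 65.8, 67.5, 63.3 and 66.5 with estradiol and 63.2, 60.1, 64.8 and 71.3 with vehicle, the last being the detected array. HNF4G, NR2E1 and NR2E3 were not detected. The steroidogenic and germ cell receptors NR5A1, NR5A2 and NR6A1 and the corepressors NR0B1 and NR0B2, which lack a usual DNA-binding domain, were not detected on any array, with log2 means between 4.42 and 4.84 in both treatments.

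Over the 10 receptor lists together, which hold 112 different genes, 62 were tested, 14 rose, 11 fell and 37 did not pass (limma). That is 40.3% of the tested list genes, against 27.7% of all tested rows, with 22.6% rising and 17.7% falling against 13.6% and 14.2%. Their median log2 change was 0.10, against -0.02 over all tested rows. The lists were assembled with earlier results of these data known, so their shares are descriptions. A further 7 list genes without a detection call had signal at the level of detected rows.

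**Figure D5:**
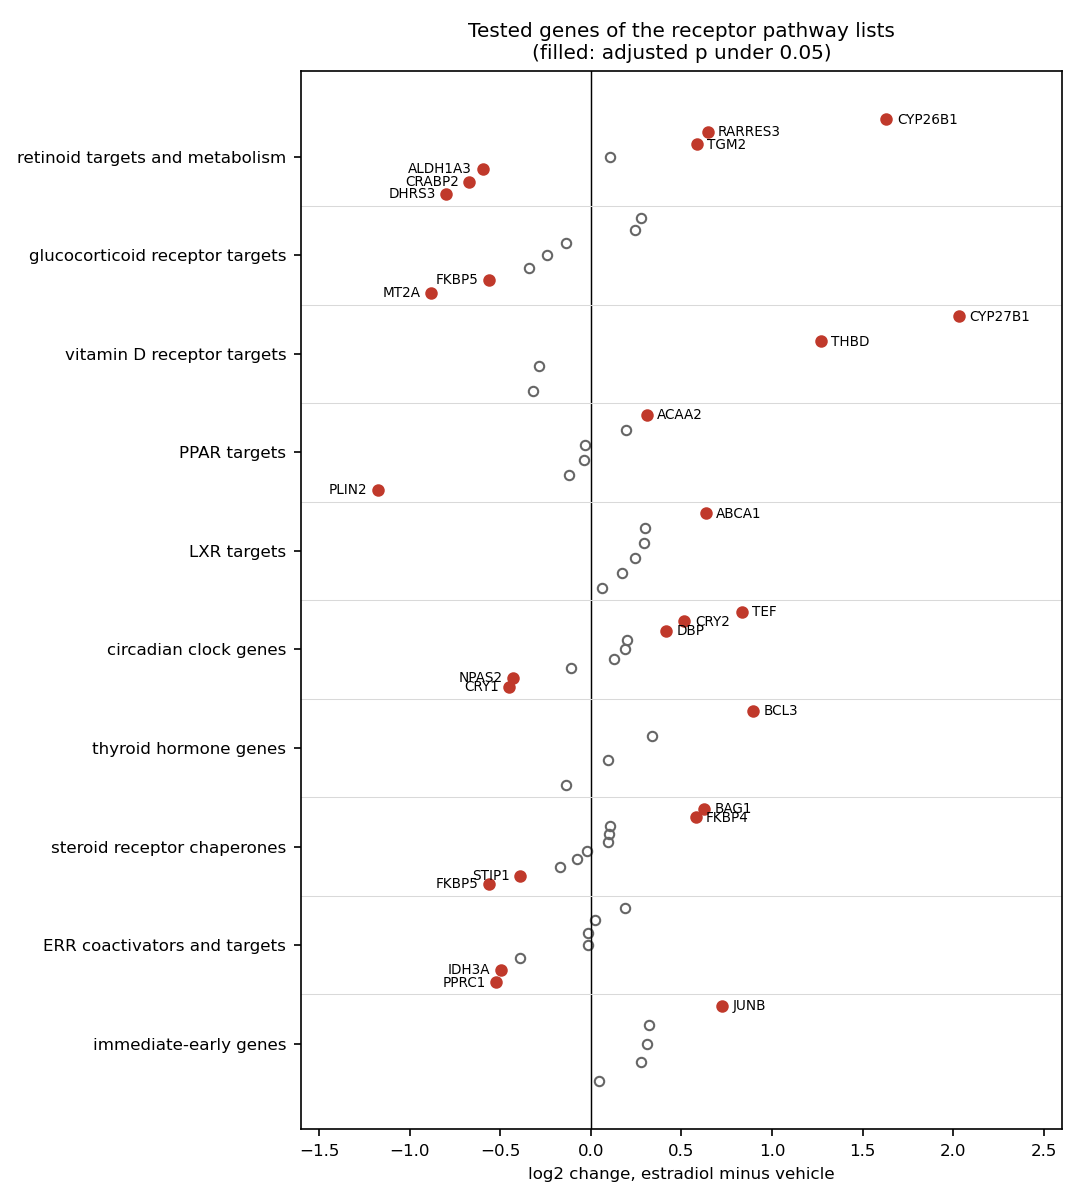
Log2 change with estradiol minus vehicle for each tested gene of the 10 receptor lists, filled and named where the adjusted p was under 0.05. CYP27B1 and CYP26B1 lie farthest right (measured changes 2.03 and 1.63), and PLIN2 farthest left (-1.18).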

How the data were processed

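The submitters' labels give Trizol extraction and biotinylated cRNA for Illumina arrays. The authors deposited 2 tables. One gives, for each array and gene row, a signal intensity that was not normalized between arrays and a detection p-value (per the file headers). In the other the authors had normalized the intensities. The sources used here do not give the method. Of 31412 named rows, 24130 have detection p-values in steps of 1 part in 770 (within 0.002 of a whole number) and were taken as single probes, and 7282 were taken as combined probes. Rows with no name (3266) were not used.

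With R 4.3.3 and limma 3.58.1, the non-normalized signals were background-corrected by normexp (background inferred from single-probe rows), offset by 16, log2 transformed and quantile normalized, and repeat arrays were averaged with their culture. The alternative with chip as a block was fitted to the 8 arrays without this averaging, so that repeat arrays counted as separate samples. Changes of dim rows are shrunk by the offset. The titles name culture 1 for the estradiol repeat and the series text replicate 3; the titles were followed. Rows with a detection p under 0.01 on at least 3 of 8 arrays (11191) entered lmFit and eBayes over 3 and 3 cultures, with Benjamini-Hochberg adjustment and a threshold of 0.05. Where a treatment had no array that detected the gene, the fold is a lower bound ("at least"): the mean of the brighter treatment over the mean, across the dim arrays, of the gene's own value or of the lowest value among detected single-probe rows if that was higher. Pair differences were tested by exact permutation over cultures.

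Promoter windows and their coordinates are RefSeq's, build GRCh38.p14, and matched 41 of 46 genes by symbol. Replicate numbers were not taken as pairs, as same-numbered deviations correlated at 0.13, 0.13 and -0.03. The receptor genes and the lists were chosen with earlier results of these data known. By rule, members past the threshold, ESR2, ESR1 and PGR got full values and other tested members levels only, at most 3 called genes per list were named by smallest p, and genes detected on 1 or 2 arrays were named. Named after their values were seen were RARRES3, TGM2, ALDH1A3, STIP1, NPAS2 and CRY1, full values for RARA, PPARG, NR3C1, VDR, THRA, HNF4A, RARG, RXRA, NR2F2 and NR1D2, and the changes and intervals of tested members without a call. Alternatives covered the repeats, chip and replicate blocks, each chip alone, background correction, offset, normalization, the authors' values, filters, variance models, array weights and each culture left out.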

Additional observations from a re-analysis of the deposited data

How the results depend on the processing

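Recomputed under the alternatives, the changes of 20 receptor genes gave 463 values, of which 428 kept their side of the limma threshold (and their direction where called), 20 lost a call and 15 gained one. Those of 25 list genes gave 595 values, of which 508 kept their side, 87 lost a call and 0 gained one, and no called value turned sign. Chip A alone, with 1 estradiol array assumed to vary like the others, called 281 rows higher and 129 lower (1518 and 1586 as reported), 0 of 15 receptor genes higher (0 also at an unadjusted p under 0.05, where 3 were lower) and 1 lower, and 3 list genes higher and 1 lower (14 and 11 as reported). Chip B alone called 2 receptor genes higher. Chip as a block, over arrays not averaged by culture, called 2 receptor genes lower. Array weights called 3080 rows higher and 3426 lower, and 5 receptor genes lower. Background inferred from all rows called 2 receptor genes higher and 7 list genes lower. Centring arrays on their median moved the median change of tested rows to 0.143, made 79.2% of calls rises (48.9% as reported) and left 540 rows and 4 list genes lower. Without both repeat arrays 7 list genes were lower. Admitting rows by level, chosen after the data were seen, called 2 receptor genes lower. A detection p under 0.05 raised the receptor genes detected on at least 1 array to 27, against 17. Leaving out each culture in turn gave 1035 to 1689 rows higher and 922 to 1698 lower, with the fewest lower rows without vehicle culture 3 (922), estradiol culture 3 (950) and estradiol culture 2 (1010). It gave 2 to 4 receptor genes higher (2 without estradiol culture 2 or vehicle culture 3) and 1 to 2 lower (2 without vehicle culture 2). For the lists it gave 11 to 15 genes higher and 7 to 12 lower (7 without estradiol culture 3 or vehicle culture 3). With a replicate block, 4 receptor genes were higher and 1 lower, 13 list genes higher and 11 lower, and 1592 rows higher and 1674 lower. The size of a change in a dim gene depends on the background. With all rows used to infer it, NR2F1, NR4A2 and VDR changed by 0.02, 0.03 and -0.02. NR2F1 and NR4A2 lost their calls there (limma adjusted p = 0.166 and 0.155). The changes of the list genes CYP27B1 (0.12), THBD (0.08), TEF (0.05), JUNB (0.06), CRY2 (0.07), DHRS3 (-0.04) and ALDH1A3 (-0.07) shrank likewise with the call kept, and CRABP2 (-0.03), BAG1 (0.03), DBP (0.02), CRY1 (-0.09), NPAS2 (-0.06) and IDH3A (-0.17) lost it.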
